A study of Homo sapiens with 16 samples.

Results

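The induction of downstream-of-gene (DoG) transcripts was examined in RNA from the aqueous phase of conventional acid guanidinium-phenol-chloroform (AGPC) extraction. It rests on 4 of the 16 libraries of the series, chosen by their labels, with 2 biological replicates of control cells and 2 of stressed cells. All were HEK293 cells, an established line derived from human embryonic kidney, of WT genotype. The stressed cells (OSCHX) had been kept for 9 h in medium with 200 mM sorbitol and 100 µg/mL cycloheximide, and the control cells had a medium change without either agent. Sorbitol draws water out of cells and cycloheximide blocks translation, and their effects cannot be told apart here because both were given together. The same conditions were also sampled with the SERIPH 1st-step fraction, which is again an aqueous phase, and with hiAGPC, in which heating releases RNA that otherwise stays at the interphase. These 8 libraries are used below for comparison, with the lists of the SERIPH 2nd-step fraction, which is recovered from the interphase. All 16 libraries also entered the estimate of spread behind each SE and adjusted p-value.

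DoGs are transcripts that run past the end of a gene when RNA polymerase II fails to terminate after the polyadenylation signal. Termination normally follows cleavage of the nascent RNA by the cleavage and polyadenylation machinery, and hyperosmotic stress, heat shock and viral infection are known to weaken it. DoG transcripts are long, mostly stay in the nucleus close to chromatin, and are therefore a class of RNA for which the method of extraction matters.

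The authors listed DoG regions in each library with ARTDeco, at a minimum length of 10 kb, and gave the FPKM of 3139 DoGs in every library over 1 region per gene, except that 4 of the 3139 (HNRNPC, SRSF7, RPS10 and ARHGAP12) are second entries of a gene already present. In 3077 cases this region had the length of the gene's longest listing among all 16 libraries, so it was often set by another preparation. The 4 conventional libraries listed 1479 of the 13529 DoG regions of the series, in 700 of 3505 genes, after 3 repeated rows were dropped. FPKM was deposited to 2 decimals, so the reads behind each value and the depth of each library are unknown. Only regions past gene ends were quantified, so the cell type could not be checked against expressed markers.

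DoG regions were more numerous, and longer, in the stressed lists. The control libraries listed 351 and 330 regions and the stressed libraries 418 and 380. The median listed region was 10.0 kb in both control libraries and 15.0 kb in both stressed libraries. Regions of 20 kb or more numbered 63 and 58 in the control libraries and 137 and 116 in the stressed libraries, which made up 17.9% and 17.6% of the control lists and 32.8% and 30.5% of the stressed lists. Regions of 50 kb or more went from 1 in each control library to 30 and 21 in the stressed libraries. No stressed library overlapped a control library in any of these measures, but with 2 libraries against 2 a two-sided exact permutation test cannot go below p = 0.33, the value each of them gave.

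**Figure D1:**
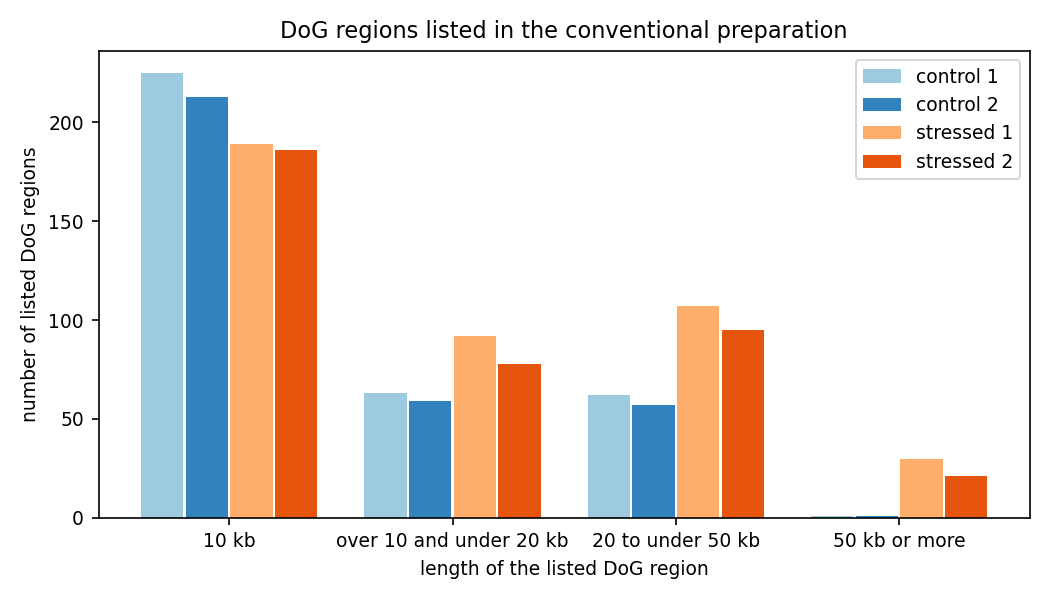
Number of DoG regions listed per library (y axis) by length of the region (x axis), with a bar for each of the 2 control and 2 stressed libraries of the conventional preparation. Regions of 10 kb were more numerous in the control libraries (225 and 213 against 189 and 186), and every longer class was more numerous in the stressed libraries.

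The genes behind the lists differed between the conditions. Of the 291 genes listed in both control libraries and the 342 listed in both stressed libraries, 108 were listed in all 4. Another 224 genes were listed in both stressed libraries and in neither control library, and 159 in both control libraries and in neither stressed library. The stress-only DoGs had a median length of 15.0 kb, and 87 of them reached 20 kb, against 10.0 kb and 32 for the control-only DoGs. The FPKM of the same DoGs differed in the same direction as the listing. Both come from reads of the same libraries, so this is not independent of how the groups were chosen. In the control libraries, the 195 stress-only DoGs with an FPKM had a median of 0.08 and 0.08, which became 0.54 and 0.49 in the stressed libraries. The 152 control-only DoGs with an FPKM went the other way, from medians of 0.68 and 0.675 to 0.22 and 0.20.

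Of the 342 genes listed in both stressed conventional libraries, 293 (85.7%) were also listed in both stressed hiAGPC libraries, where they made up 18.8% of the list. The SERIPH 1st-step fraction shared 248 genes, 72.5% of the conventional list and 88.9% of its own. Of the 342 genes, 8 were listed in no stressed library of any other preparation. Of the 159 control-only genes, 46 (28.9%) were listed in both stressed libraries of hiAGPC, 48 (30.2%) in those of the SERIPH 2nd-step fraction and 3 (1.89%) in those of the SERIPH 1st-step fraction.

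The longest DoGs of the stressed lists, by the mean of both libraries, lay behind genes of varied roles. RPS12, a protein of the small ribosomal subunit on which the study had tuned its detection settings, was listed over 205 kb in both stressed libraries (chr6:132817578-133022577, plus strand, GRCh38) and in neither control library. The listed region held the lncRNA gene LINC00326 on the same strand, and the region of 924.6 kb used for FPKM also reached EYA4, so reads of these genes cannot be separated from readthrough. AMPD3, an AMP deaminase, was listed over 238.6 and 115 kb, with the lncRNA gene IRAG1-AS1 inside. CREB5, a transcription factor, followed with 115 and 80 kb, and CYCS, which encodes cytochrome c, with 100 and 95 kb, and the listed regions of these genes held no annotated same-strand neighbour. ING3, a subunit of a histone acetyltransferase complex, was listed over 90 and 100 kb, and CPED1, a protein-coding gene, lay inside. None of the 5 genes was listed in a control library.

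Stress did not lengthen most DoGs that were already present. Among the 108 genes listed in all 4 libraries, the mean length was greater under stress for 24, smaller for 20 and equal for 64. Both stressed regions exceeded both control regions for 21 genes and fell short of both for 13. SRSF3, a splicing factor, went from 10 kb in each control library to 70 kb in each stressed library, and the listed region ended just before CDKN1A, the same-strand gene of the p21 cell cycle inhibitor, which lay inside the longer region used for its FPKM. SUV39H2, a histone H3 lysine methyltransferase, went from 10 to 45 kb in both replicates. SERBP1, an RNA-binding protein, was listed at 10 kb in both control libraries and at 95 and 20 kb in the stressed ones, which shows how far replicate lists can differ. The opposite was seen at CDKN2C, which encodes another cell cycle inhibitor, with 40 kb in both control libraries and 10 kb in both stressed ones. At CPLANE1, a ciliogenesis gene, and BUB3, a spindle checkpoint gene, both regions went from 35 to 10 kb. The listed regions of all 6 genes held no annotated gene on their own strand.

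The level of each DoG was then compared between conditions on the scale log2(FPKM + 0.1) with limma, fitted to all 16 libraries, and called DoGs are those past both thresholds used throughout, 0.05 for the p-value adjusted by the Benjamini-Hochberg method and 1 for the size of the log2 fold change in either direction. Of the 3139 DoGs, 22.2% were called higher (697) and 11.0% lower (345) under stress. In all 1042 called DoGs the stressed and control values did not overlap, which was also so for 1798 of the 2097 that were not called. The balance of directions depended on the scaling. Centring each library on its median DoG lowered the median log2 fold change by 0.56, from 0.44 to -0.12, and then 270 DoGs were called higher and 614 lower. FPKM is relative to the other reads of its library, so more DoG RNA and less of other RNA cannot be told apart. All 270 DoGs called higher after centring, and all 345 called lower before it, had the same call on both scales.

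**Figure D2:**
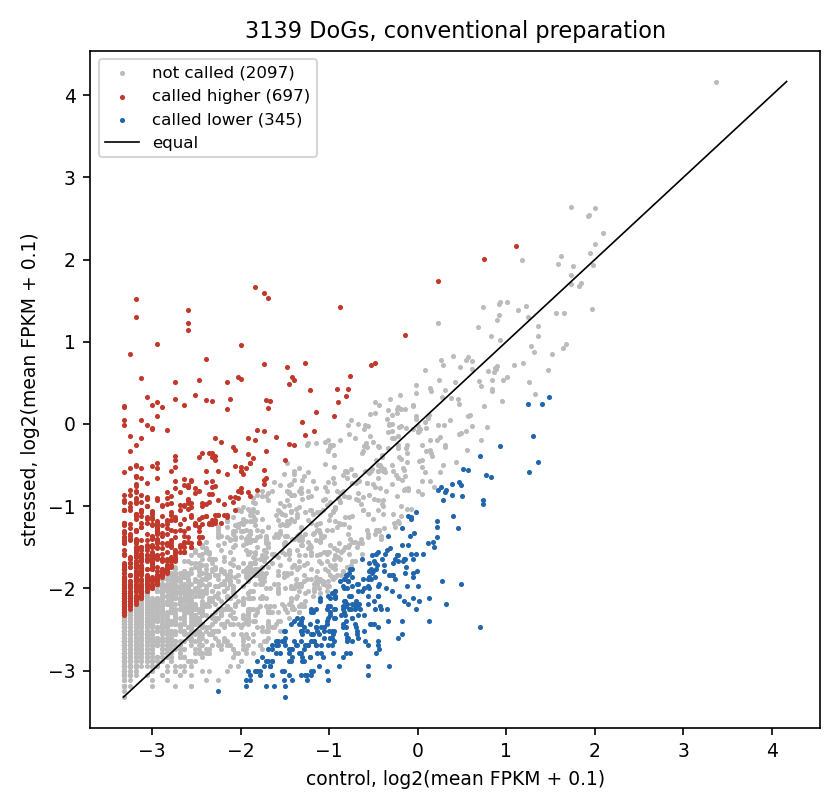
Each point is 1 of 3139 DoGs, with log2(mean FPKM + 0.1) of the 2 control libraries on the x axis and of the 2 stressed libraries on the y axis, and the line marks equal values. The 697 DoGs called higher (red) lie mainly at the left, at a median control FPKM of 0.02, and the 345 called lower (blue) start from a median of 0.475, where centring each library would give 270 and 614 calls.

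A floor under the control values was visible among the DoGs called higher. In the control libraries 381 and 438 of the 3139 DoGs had an FPKM of 0, against 6 and 9 in the stressed libraries. Of the 697 DoGs called higher, 117 had an FPKM of 0 in both control libraries. The number at an FPKM of at least 1 was 141 and 138 in the control libraries and 148 and 148 in the stressed libraries. The median DoG had an FPKM of 0.07 in both control libraries and of 0.16 and 0.14 in the stressed ones. A DoG under 0.1 in both control libraries cannot fall by 1 on the scale log2(FPKM + 0.1), even to an FPKM of 0. Without centring, no such DoG could be called lower.

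DNA just before the DoG region is shown for members of both directions, because the signal for 3′ end formation lies at the end of the gene, where DoG regions begin. Replication-dependent histone transcripts end in a stem-loop without a poly(A) tail, whereas other protein-coding genes end shortly after a polyadenylation hexamer. The windows below are 30 bases from GRCh38 that end at or shortly before the start of the DoG region, 5′ to 3′ on the strand of the gene, with the 16-base stem-loop or the hexamer in capitals. H2AC12 lies at chr6:27147533-27147562 on the plus strand, H2BC8 at chr6:26216211-26216240 on the minus strand, HNRNPDL at chr4:82422567-82422596 on the minus strand and RPL31 at chr2:101023996-101024025 on the plus strand, and all were called higher.
H2AC12: actggaaaacaaaGGCTCTTTTCAGAGCCa
H2BC8: actcaaaGGCTCTTTTCAGAGCCactcaag
HNRNPDL: gactATTAAAatgagatgtctgttgggatg
RPL31: gtgaAATAAAggtctcataaatttctgttc
The authors' regions began at gene ends of their own annotation, GENCODE v49, and in GENCODE v44 the gene ends of SECISBP2 and TMA16 lie further upstream, so that their DoG regions begin 3971 and 195 bases past them and the 2 windows are not at the v44 gene end. SECISBP2, called higher, and TMA16 and COX5A, called lower, are shown beside the others, at chr9:89363604-89363633 (plus strand), chr4:163520704-163520733 (plus strand) and chr15:74919791-74919820 (minus strand).
SECISBP2: ctcaatggaaagccAATAAAacccaaaccc
TMA16: gtcataaattgcATTAAAgagaataagaac
COX5A: cattctgATTAAAcagctgagtaaaacaaa

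The histone stem-loop was searched for by its consensus on the strand of the gene, in the last 100 bases before each DoG region. It was found at 11 of the 3135 DoGs with a region (0.351%), all of them among the 23 DoGs of replication-dependent histone genes. Of those 11, 8 were called higher, and of the other 12 histone DoGs 10 were. The hexamers AATAAA or ATTAAA were present in the last 50 bases before the region for 63.7% of the DoGs called higher, 64.6% of those called lower and 65.7% of all.

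The DoG with the highest log2 fold change was that of SECISBP2, whose product is needed to insert selenocysteine into proteins. Its FPKM was 0.01 in both control libraries and 2.77 and 2.76 in the stressed libraries, a log2 fold change of 4.70 (SE 0.077, limma adjusted p = 3.09e-12). The DoG was listed over 65 kb in both stressed libraries (chr9:89363634-89428633, plus strand), within the 140 kb over which FPKM was computed, and no other annotated gene lay there on the same strand. CARS2, the mitochondrial cysteinyl-tRNA synthetase, went from 0.06 and 0.07 to 2.21 and 2.29 over a region of 15 kb, also free of same-strand genes (log2 fold change 3.83, SE 0.15). RPH3AL-AS2, an antisense lncRNA gene, went from 0.01 and 0.01 to 2.28 and 2.46 (log2 fold change 4.49). It was listed in only 1 of the 16 libraries, a stressed conventional one. For SECISBP2, CARS2 and RPH3AL-AS2 the gap between the conditions was far wider than the gap between replicates.

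Where another gene lay on the same strand inside the region, its reads cannot be separated from readthrough. This holds for the DoGs of RYK, a Wnt receptor, and PNP, a purine nucleoside phosphorylase. RYK had FPKM of 0.01 and 0 in control and 1.62 and 1.80 under stress, over a region that holds the lncRNA gene LINC02000. PNP had 0.03 and 0.03 in control and 1.88 and 1.85 under stress, yet was listed in none of the 4 libraries, and its region of 81.8 kb holds RNASE10. Among the DoGs called higher with the highest stressed FPKM, PKD1, which encodes polycystin-1, went from 1.06 and 1.09 to 3.19 and 3.31, over a region that includes ZNF598 and NTHL1. SURF2 went from 0.20 and 0.20 to 2.80 and 3.04, over a region with STKLD1 and ADAMTS13. ENSG00000170846 went from 0.16 and 0.20 to 3.04 and 3.09, over a region with S100P. Among DoGs named below, same-strand genes also lay in the regions of RPL32, RACK1, MRPL39, DNAJB9, ZNF254, DHX15, AUNIP, TMEM167B and GUF1. The same was so for H4C14, H4C15 and RBM15-AS1. Among DoGs named above for their listed lengths, it held for AMPD3, CREB5, CYCS, ING3, SERBP1, SUV39H2 and BUB3. Their FPKM was computed over longer regions than those listed in the conventional libraries.

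**Figure D3:**
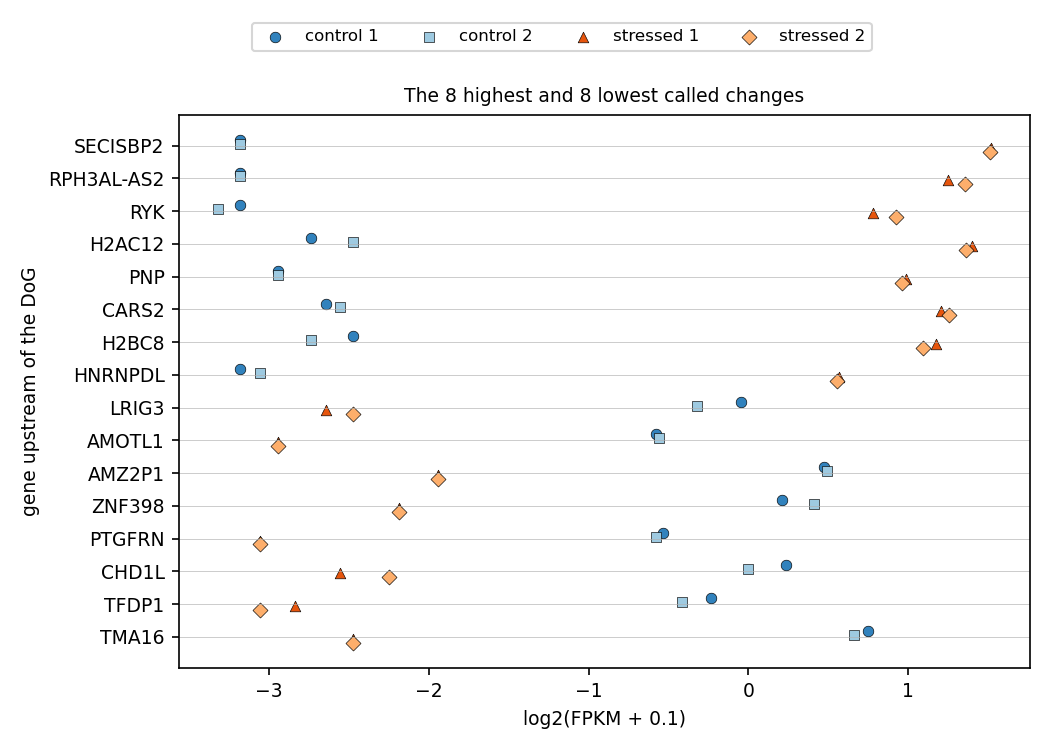
log2(FPKM + 0.1) in each of the 4 libraries (x axis; 1 symbol per library) for the 8 largest rises and the 8 largest falls among the called DoGs. Control and stressed symbols of a gene never overlap, and replicates lie close together relative to the distance between the conditions.

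The DoGs that fell lost most of a moderate control level. TMA16, a ribosome biogenesis factor, had the lowest log2 fold change, at -3.18 (SE 0.15, limma adjusted p = 3.58e-09), with FPKM of 1.58 and 1.48 in control and 0.08 and 0.08 under stress. It was listed over 20 kb in both control libraries and in neither stressed one. CHD1L, a chromatin remodeller, went from 1.08 and 0.90 to 0.07 and 0.11, and ZNF398, a zinc finger protein, from 1.06 and 1.23 to 0.12 and 0.12. The 10 kb regions of CHD1L and ZNF398 were free of same-strand genes, whereas that of TMA16 held a lncRNA gene.

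Similar losses were seen at genes of unrelated roles. TFDP1, the dimerization partner of E2F factors, went from 0.75 and 0.65 to 0.04 and 0.02. PTGFRN, a membrane glycoprotein, went from 0.59 and 0.57 to 0.02 and 0.02, AMOTL1, of the angiomotin family, from 0.57 and 0.58 to 0.03 and 0.03, and LRIG3, a leucine-rich repeat membrane protein, from 0.87 and 0.70 to 0.06 and 0.08. AMZ2P1, a pseudogene, went from 1.29 and 1.31 to 0.16 and 0.16, over a region of 75 kb that also holds LRRC37A3. All 8 stayed called lower when each library was centred. TFDP1 and LRIG3 were listed as DoGs in none of the 4 libraries.

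The listing of a DoG and its FPKM did not always point the same way. Of the 697 DoGs called higher, 487 (69.9%) were listed in none of the 4 conventional libraries, and so were 201 of the 345 called lower (58.3%). Among all 3139 DoGs this share was 79.7%. DoGs described singly that were called higher but listed in none of the 4 included PNP, NDUFV1, HES1, SLC6A6, HSP90B1, DNAJB9, DNAJB1, SNHG19, EEF1A1, LMF1-AS1, ANKRD17-DT and RBM26-AS1. Those called lower but listed in none of the 4 included TFDP1, LRIG3, NDUFV3, MRPL21, DNAJC30 and ZNF567-DT. Of the 487, 465 (95.5%) were listed in at least 1 stressed library of the SERIPH 2nd-step fraction and 371 (76.2%) in 1 of hiAGPC. Listing and FPKM rest on reads of the same libraries, so where they match is no independent evidence. The stress-only genes were called higher in 144 of 195 cases and lower in 0, and the control-only genes were called lower in 90 of 152 cases and higher in 2. Those 2, chosen for description after their values were seen, were DHX15, an RNA helicase of the spliceosome, and AUNIP, a mitotic kinase partner. DHX15 was listed over 10 kb in both control libraries, but its FPKM was computed over 560 kb and went from 0.02 and 0.02 to 0.24 and 0.20. For AUNIP the listed region was again 10 kb and the quantified one 370 kb, with FPKM of 0.03 and 0.03 in control and 0.22 and 0.18 under stress. Neither remained called after centring.

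At the other end, high DoG levels could leave a list without a call. KNSTRN, a spindle protein, was listed in both control libraries and in neither stressed one, although its FPKM of 3.04 and 3.04 in control and 2.44 and 2.47 under stress gave a log2 fold change of only -0.30. The same held for TMEM167B, with 2.83 and 2.88 against 2.71 and 2.19, and for GUF1, a mitochondrial translation factor, with 1.93 and 2.44 against 1.62 and 1.52. For these genes, absence from the stressed lists did not go with a called loss of FPKM.

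Called direction went with the length of the quantified region. Of the 673 DoGs quantified over 10 kb or less, 12.9% were called higher and 20.4% lower. Those shares were 22.6% and 9.69% for the 753 DoGs over 20 to 50 kb, and 35.3% and 1.69% for the 590 DoGs over 100 kb. The median log2 fold change went from -0.00086 in the shortest class to 0.79 in the longest. After centring, 5.94% of the shortest class and 13.6% of the longest were called higher, and 35.4% and 4.75% lower. These lengths were taken from the longest region listed in any library of the series, stressed libraries included, so they are not independent of the stress response. The median control FPKM was 0.155 in the shortest class and 0.0525 in the longest. Lower calls thus had less room in the longest class, since without centring a DoG under 0.1 in both control libraries could not be called lower.

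Other features are given as descriptions. Another gene lay on the same strand in the region of 47.1% of the DoGs called higher, 29.6% of those called lower and 41.4% of all. The median GC content of the first 5 kb past the gene was 45.2% for the DoGs called higher, 42.3% for those called lower and 45.9% for all. Genes for lncRNA made up 9.33%, 4.35% and 8.22%.

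The genes upstream of the DoGs were then grouped into 17 lists by function, and each count is to be read against 22.2% called higher and 11.0% called lower among all DoGs. Counts of falls are limited by the floor, since without centring DoGs under an FPKM of 0.1 in both control libraries could not be called lower. Replication-dependent histone genes, whose products package newly made DNA, stood at the top: 18 of 23 DoGs rose (78.3%) and 0 fell, with a median log2 fold change of 2.07, and 13 were still called higher after centring. H2AC12, a histone H2A gene, had FPKM of 0.05 and 0.08 in control and 2.54 and 2.47 under stress (log2 fold change 3.99, SE 0.18, limma adjusted p = 2.93e-09). Among the conventional libraries it was listed as a DoG only in stressed replicate 2. H2BC8, a histone H2B gene, went from 0.08 and 0.05 to 2.16 and 2.04, and H2AC6 from 0.01 and 0.04 to 1.12 and 1.02. Each of these 3 regions was free of same-strand genes.

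The histone gene clusters also hold regions that are harder to read. H4C4 was not called, at 3.26 and 3.17 in control and 6.15 and 6.12 under stress, and its quantified region of 153.9 kb runs over other histone genes. The pair H4C15 and H4C14 had the highest stressed FPKM of all DoGs called higher. H4C15 went from 2.07 and 2.04 to 4.45 and 4.28 and H4C14 from 1.55 and 1.61 to 4.26 and 3.60. Both were listed over 10 kb in all 4 libraries. These 2 genes lie in a duplicated segment and only uniquely mapped reads were kept, so their values are uncertain. Neither was called after centring. Of the 10 histone regions free of same-strand genes, all 10 were called higher.

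Genes of the translation machinery formed further lists. Of 44 DoGs of cytosolic ribosomal protein genes, counting each gene once, 22 rose (50.0%) and 2 fell, or 12 and 4 after centring. Same-strand genes lay in 28 of the 44 regions, where their reads cannot be separated from readthrough. Of the 16 regions free of same-strand genes, 5 were called higher. RPS4X, of the small subunit, went from 0.02 and 0.02 to 1.17 and 1.13 (log2 fold change 3.38, SE 0.094). RPL31, of the large subunit, went from 0.04 and 0.03 to 1.08 and 1.03 and was listed over 35 kb in both stressed libraries. RPL32 went from 0.12 and 0.14 to 1.15 and 1.11. RPS12, the longest of the stressed DoGs by the mean of both libraries, had FPKM of 0.35 and 0.35 in control and 1.08 and 0.94 under stress, a log2 fold change of 1.30 that was not called after centring.

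Translation factors were closer to the background, with 8 of 31 higher (25.8%) and 2 lower, and 3 and 3 after centring. This list was matched on symbols and took in genes that encode no translation factor proper, namely EIF2AK2, EEF1AKMT4, EIF4EBP1, EIF4EBP2 and EIF4EBP3. Of these, EIF4EBP1 was called lower (log2 fold change -1.002) and the others were not called. EIF5A, an elongation factor, went from 0.05 and 0.07 to 1.07 and 1.08, over a region that includes ACAP1. EEF1A1, which delivers aminoacyl-tRNA to the ribosome, had an FPKM of 0 in both control libraries and reached 0.25 and 0.21. Host genes of small nucleolar RNAs, most of which are lncRNA genes, rose in 8 of 12 cases (66.7%) and fell in 0, and 5 of them remained called after centring. Among them were RACK1, a ribosome-bound scaffold protein (0.22 and 0.19 to 1.08 and 1.17), TAF1D, a factor of RNA polymerase I (0.03 and 0.03 to 0.37 and 0.31), and the lncRNA gene SNHG19 (0.07 and 0.08 to 0.49 and 0.43). RACK1 also belongs to the ribosomal protein list. Of the 12 regions of small nucleolar RNA host genes, 7 held same-strand genes, and 3 of the other 5 were called higher.

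Of 47 DoGs of splicing factor and hnRNP genes, counting each gene once, 18 rose (38.3%) and 0 fell, which became 11 and 3 after centring. The list was drawn up by symbol and took in 2 antisense lncRNA genes that encode no splicing factor, RBM26-AS1 (called higher, log2 fold change 1.56) and RBM15-AS1 (not called, 0.93), without which 17 of 45 rose. HNRNPDL, an RNA-binding hnRNP protein, had FPKM of 0.01 and 0.02 in control and 1.38 and 1.37 under stress (log2 fold change 3.68, SE 0.085, limma adjusted p = 3.7e-11), over 45 kb without a same-strand gene. HNRNPAB went from 0.03 and 0.03 to 0.60 and 0.58, and HNRNPA2B1 from 0.01 and 0.01 to 0.45 and 0.39. Their FPKM was computed over 260 and 720 kb that hold same-strand genes, although the DoGs were listed over 45 and 20 kb. Only 15 of the 47 regions were free of same-strand genes, and 5 of these, RBM26-AS1 included, were called higher. Genes of the 3′ end processing and termination machinery were 13, of which 6 rose and 0 fell, or 4 and 1 after centring. CSTF3, a subunit of the cleavage stimulation factor, went from 0.01 and 0 to 0.62 and 0.56, and INTS6, of the Integrator complex, from 0.02 and 0.01 to 0.57 and 0.50. The region of INTS6, 270 kb, holds C13orf42 on the same strand.

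**Figure D4:**
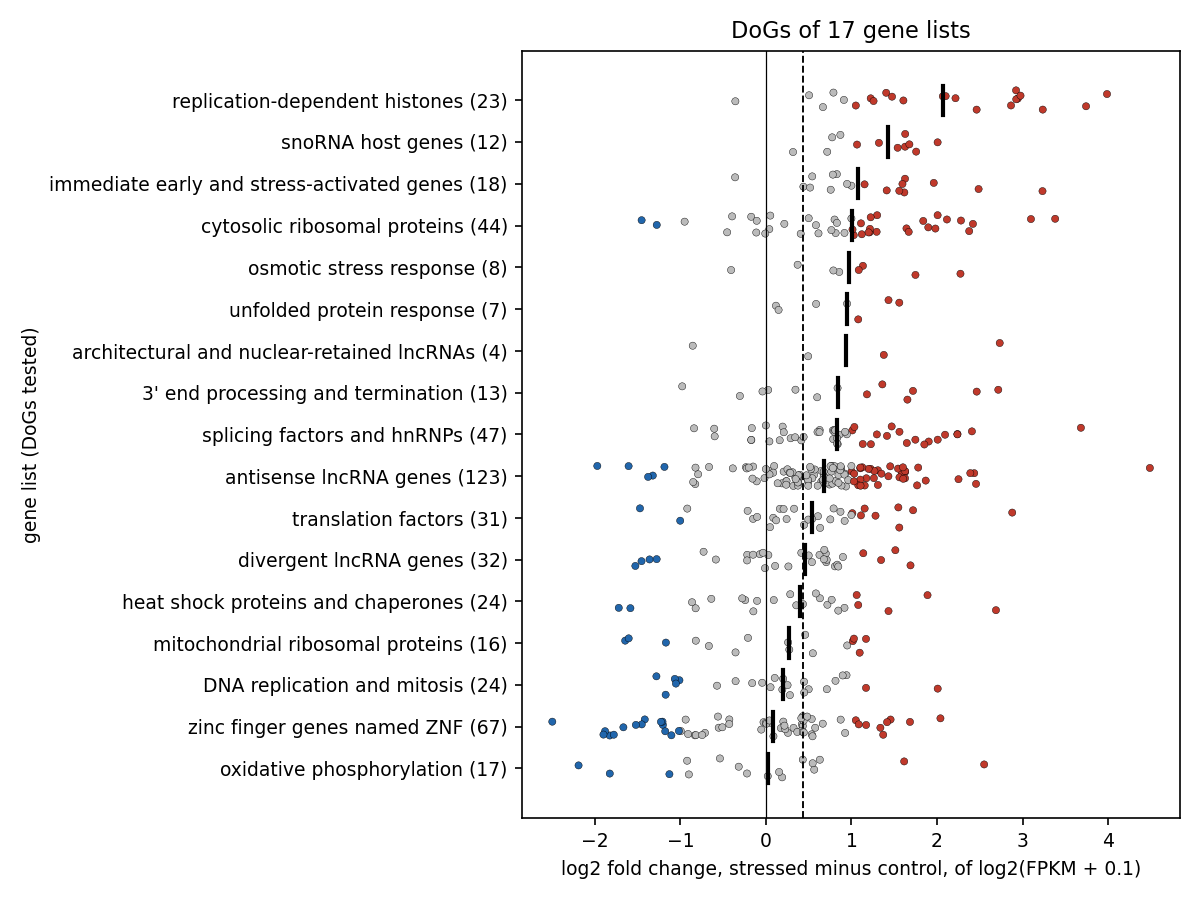
log2 fold change (stressed minus control, x axis) of every tested DoG in 17 gene lists (y axis, number of DoGs in brackets), coloured red when called higher, blue when called lower and grey otherwise. Thick bars are list medians and the dashed line is the median of all DoGs, 0.44: the histone list has the highest median, 2.07, and the oxidative phosphorylation list the lowest, 0.02, which became 1.51 and -0.53 with each library centred.

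Genes that respond to stress were examined as further lists. Of 18 immediate early and stress-activated genes, 9 DoGs rose (50.0%) and 0 fell, with 7 and 0 after centring. Same-strand genes lay in 12 of the 18 regions, and 4 of the 6 free regions were called higher. DUSP1, a phosphatase that switches off MAP kinases, went from 0.04 and 0.06 to 1.13 and 1.51 (log2 fold change 3.23, SE 0.16, limma adjusted p = 6.34e-09). DUSP5, a phosphatase of the same family, went from 0.03 and 0.02 to 0.58 and 0.62, and HES1, a transcriptional repressor, from 0.10 and 0.10 to 0.65 and 0.71. All 3 regions were free of same-strand genes.

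In the osmotic stress list 4 of 8 DoGs rose and 0 fell, and 2 of them remained called after centring. Same-strand genes lay in 6 of the 8 regions, and 1 of the 2 free regions, that of SLC6A6, was called higher. SLC6A6, the taurine transporter, went from 0.01 and 0.01 to 0.29 and 0.25. In the unfolded protein response list 3 of 7 rose and 0 fell, or 1 and 0 after centring. They were ATF4, a transcription factor made under stress (0.09 and 0.11 to 0.53 and 0.45), HSP90B1, a chaperone of the endoplasmic reticulum (0.03 and 0.04 to 0.24 and 0.29), and DNAJB9, a co-chaperone of the endoplasmic reticulum (0.03 and 0.05 to 0.20 and 0.19).

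Heat shock proteins and chaperones were close to the background, with 5 of 24 higher (20.8%) and 2 lower (8.33%), and 2 and 5 after centring. DNAJA1 went from 0.11 and 0.07 to 1.18 and 1.06 and DNAJB1 from 0.04 and 0.03 to 0.38 and 0.42, while DNAJC30 went down from 0.83 and 0.60 to 0.14 and 0.15. All 3 belong to the DnaJ family of co-chaperones, so members of a single family moved in both directions.

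The lists with more falls than rises concerned zinc finger proteins, DNA replication and oxidative phosphorylation. Of 67 DoGs of ZNF genes, mostly transcriptional repressors, 15 fell (22.4%) and 9 rose (13.4%), or 25 and 2 after centring. ZNF254 went from 0.57 and 0.61 to 0.09 and 0.08, whereas ZNF92 went from 0.04 and 0.02 to 0.48 and 0.39. Of 24 DoGs of DNA replication and mitosis genes, 5 fell and 2 rose, or 6 and 1 after centring. GINS4 and GINS2, subunits of the replicative helicase, went from 0.82 and 0.92 to 0.33 and 0.27 and from 1.25 and 1.32 to 0.49 and 0.54. CDT1, which licenses replication origins, went up from 0.32 and 0.31 to 1.61 and 1.53, over a region that includes TRAPPC2L.

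For genes of mitochondrial proteins the counts were small. Among 17 DoGs of oxidative phosphorylation genes, 3 fell and 2 rose, or 6 and 2 after centring. COX5A, of complex IV, went from 0.67 and 0.59 to 0.05 and 0.07 and NDUFV3, of complex I, from 0.53 and 0.51 to 0.08 and 0.07. NDUFV1, another subunit of complex I, was at 0.01 and 0.01 in control and 0.53 and 0.56 under stress. Its region of 345 kb holds LINC02754 on the same strand, and it was listed in none of the 4 libraries. Among 16 DoGs of mitochondrial ribosomal protein genes 4 rose and 3 fell, but 0 and 5 after centring. MRPL39 went from 0.66 and 0.61 to 0.13 and 0.14 and MRPL21 from 0.34 and 0.40 to 0.07 and 0.04. MRPL36 went from 0.13 and 0.15 to 0.42 and 0.46, and its call was lost after centring.

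Among lncRNA genes, 37 of 123 antisense DoGs rose (30.1%) and 5 fell, or 15 and 10 after centring. LMF1-AS1 had an FPKM of 0 in both control libraries and of 0.41 and 0.49 under stress. Of 32 divergent lncRNA genes, which start opposite the promoter of a neighbour, 4 rose and 4 fell, or 1 and 6 after centring. ANKRD17-DT went from 0.01 and 0.01 to 0.26 and 0.25 and ZNF567-DT from 0.33 and 0.49 to 0.08 and 0.07. The region of ANKRD17-DT begins 35656 bases past its GENCODE v44 gene end. Of 4 architectural or nuclear-retained lncRNA genes, 2 DoGs were called higher and 0 lower, or 1 and 1 after centring. KCNQ1OT1, an imprinted antisense RNA, had FPKM of 0 and 0 in control and of 0.56 and 0.57 under stress. NORAD, which binds Pumilio proteins, went from 0.03 and 0.02 to 0.24 and 0.21, over 225 kb that include SCAND1. A listed lncRNA DoG need not be a continuous extension of the lncRNA, since FPKM gives no position within the region.

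The stress response in conventional RNA was compared with that in the SERIPH 1st-step fraction, a second aqueous preparation with its own control and stressed libraries. The paper treats this fraction as corresponding to the conventional preparation, and its methods describe conventional extraction alongside SERIPH on shared samples. The libraries may therefore come from the same cells, and similar responses are not an independent replication. No DoG of 3139 had a different response in limma (0.0% higher and 0.0% lower), and 306 had an unadjusted p-value under 0.05. The difference in log2 fold change, conventional minus SERIPH 1st step, had a median of 0.00, and 94.8% of the DoGs lay within 0.5 of 0. Of the 697 DoGs called higher in the conventional preparation, 593 were called higher in the SERIPH 1st-step fraction, and 290 of the 345 called lower were called lower. For SECISBP2 the log2 fold changes were 4.70 and 4.97, for H2AC12 3.99 and 3.29, and for TMA16 -3.18 and -2.92.

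Per the study's methods, conventional and hiAGPC extractions were run side by side on shared samples, so their libraries of a condition may come from the same cells, but the labels do not say which libraries those are, and they were treated as independent. Against hiAGPC, the response in conventional RNA was lower for 64.0% of the DoGs (2009) and higher for 0.733% (23), with a median difference of -1.29. This balance too depended on scaling, because after centring 542 were higher and 109 lower. The DoGs called higher in conventional RNA had a median log2 fold change of 1.41 there and of 2.86 in hiAGPC, and 694 of the 697 were called higher in hiAGPC as well. Those called lower had medians of -1.41 and -1.29, and 218 of 345 were called lower in hiAGPC. Of these 345, the response differed between the preparations for 40, being lower in conventional RNA for 35 and higher for 5.

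Among the DoGs described singly, the differences from hiAGPC furthest below 0 were those of AUNIP and HNRNPA2B1, quantified over 370 and 720 kb. HNRNPA2B1 had a log2 fold change of 2.24 in conventional RNA and 4.76 in hiAGPC, a difference of -2.52 (SE 0.10, limma adjusted p = 3.14e-09). NORAD had 1.38 and 3.76, SRSF3 1.65 and 3.72, and RPS12 1.30 and 2.84. Of the 8 DoGs with the highest log2 fold changes in conventional RNA, 1 had a called difference, HNRNPDL, with 3.68 in conventional RNA and 5.14 in hiAGPC. SECISBP2 had 4.70 and 5.56 and CARS2 3.83 and 3.16, and these differences passed the threshold for the adjusted p-value but not that of 1 for size. Of the 23 histone DoGs, 12 responded less in conventional RNA than in hiAGPC, and of the 44 ribosomal protein DoGs 29 did, against 64.0% of all DoGs.

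**Figure D5:**
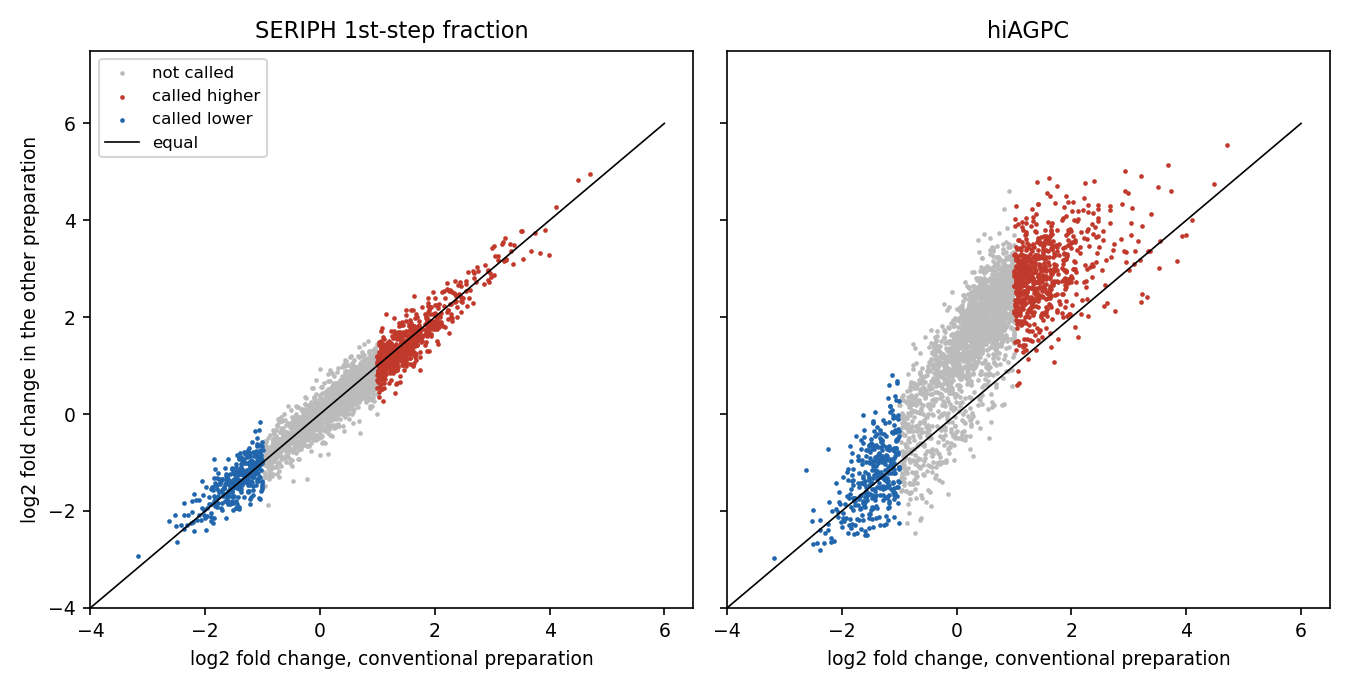
log2 fold change under stress of 3139 DoGs in the conventional preparation (x axis) against that in the SERIPH 1st-step fraction (left, y axis) and in hiAGPC (right, y axis), coloured by the call in the conventional preparation, with a line at equal values. Points lie along the line on the left and mostly above it on the right, where 2009 DoGs had a lower response in the conventional preparation without centring and 109 with it.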

How the data were processed

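Libraries were grouped by the labels of cells and extraction, into 8 groups of 2 biological replicates. Per the labels and the paper's methods, rRNA-depleted, stranded libraries were sequenced as paired-end reads of 150 bp at a nominal 20 to 60 M read pairs, and the authors processed the reads with fastp 0.25.0, Bowtie2 2.5.4 and STAR 2.7.11b on GRCh38, kept unique reads and called DoGs with ARTDeco (windows of 5000 bp, minimum coverage 0.5) on GENCODE v49. DESeq2 is also named in the submitters' processing notes. The authors deposited FPKM values of DoGs, scaled to library and region length, and region lists per library; the reads used for scaling are not given in the sources used here. FPKM is rounded to 0.01, so depth is unknown and no counting interval is given. No column was left unassigned.

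From these, log2(FPKM + 0.1) was fitted with limma 3.58.1 in R 4.3.3 (8 group means, intensity trend, all 16 libraries), which understates changes of low values. P-values measure the spread between the labelled biological replicates, estimated over all 8 groups. The model was tested on simulated data and recovered 197, 200 and 200 of 200 DoGs at log2 changes of 1.5, 2 and 3 for stressed against control conventional libraries, over 3139 DoGs. The model's recovery of falls limited by the floor under low FPKM, or of FPKM rounded to 0.01, was not tested. A gene counted as listed when both replicates listed it. Lists were compared with Python 3.11.15. Positions and neighbouring protein-coding and lncRNA genes came from GENCODE v44, which held 3499 of 3509 identifiers. Of the listed regions 93.9% began within 1 kb of the gene end. Among DoGs described singly, the start lay further off for ANKRD17-DT (35656 bases), SECISBP2 (3971), SNHG19 (3690) and NORAD (3339). This was also so for DUSP1 (1105), SURF2 (1058) and ZNF567-DT (1042).

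DoGs named singly were the 8 highest and 8 lowest called log2 fold changes without overlap between groups, the 6 highest and 6 lowest free of same-strand genes, the 5 with the highest stressed FPKM, the 5 longest stressed regions, the 3 largest and 3 smallest length ratios, the 3 highest FPKM among genes listed in 1 condition, and up to 3 per gene list; not all of them are described, and results for 1 locus are not reported here. In counts over gene lists each gene entered once. The comparisons, the members and the gene lists were chosen with earlier results of these data known. Alternatives were other pseudocounts, a filter on FPKM, centring, a replicate block, the 4 libraries alone, no trend, no fold threshold, regions free of same-strand genes, listed DoGs only, and leaving out each library; and, added after seeing the data, second entries of a gene dropped and conventional and hiAGPC libraries paired by number; for lists, either replicate, a 20 kb minimum, single replicates and 50% reciprocal overlap.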

Additional observations from a re-analysis of the deposited data

Results flagged for a closer look

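These results were singled out because the stress response in the conventional preparation differed from that in hiAGPC in the test of the difference itself (limma, Benjamini-Hochberg adjusted over 3139 DoGs, with a difference of at least 1 on the log2 scale). It was higher in conventional RNA for 23 DoGs and lower for 2009. Values are the log2 fold change in conventional RNA minus that in hiAGPC, from 2 libraries per group. The test was made without centring, under which the balance turned, so each value carries the scaling of the 4 groups it was computed from.

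Of the DoGs described singly, 2 responded less negatively in conventional RNA, and they were chosen after their values were seen as the highest 2 of the 23. They were HCCS-DT, a divergent lncRNA gene (1.73), whose FPKM was 0.69 and 0.50 in control hiAGPC against 0.11 and 0.07 in control conventional RNA, and AGAP9 (1.56), a member of a duplicated gene family in which uniquely mapped reads may miss part of the signal.

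Among the longest or lengthened DoGs, the difference was -1.54 for RPS12, -1.87 for AMPD3, -1.33 for CREB5, -1.94 for CYCS, -1.28 for ING3, -2.07 for SRSF3, -1.97 for SERBP1 and -1.65 for SUV39H2. For genes of RNA-binding and RNA-processing proteins it was -1.46 for HNRNPDL, -1.46 for HNRNPAB, -2.52 for HNRNPA2B1, -1.85 for INTS6 and -2.23 for DHX15, and for the antisense genes beside RBM genes -1.12 at RBM26-AS1 and -1.29 at RBM15-AS1. For translation factors it was -1.47 for EIF5A and -1.33 for EEF1A1, and for snoRNA host genes -1.22 for TAF1D and -1.06 for SNHG19. For stress genes it was -1.00 for SLC6A6, -1.02 for HSP90B1 and -1.29 for DNAJB9. For lncRNA genes it was -2.38 for NORAD, -1.21 for LMF1-AS1 and -1.04 for ANKRD17-DT. The others were AUNIP (-2.85), ENSG00000170846 (-1.18), NDUFV1 (-1.05), NDUFV3 (-1.02) and TFDP1 (-1.47). NDUFV3 and TFDP1 fell in conventional RNA, so for these 2 the negative difference was a stronger fall than in hiAGPC. For the longest or lengthened DoGs, FPKM was computed over longer regions than those listed in the conventional libraries, with same-strand genes inside. The regions of CREB5 (550 kb), CYCS (755.3 kb) and SERBP1 (350.6 kb) held CHN2, GSDME with OSBPL3, and C1orf141. Reads of such genes cannot be separated from readthrough in these differences.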

How the results depend on the processing

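With 697 DoGs called higher and 345 lower, the counts were 1545 and 479 at a pseudocount of 0.01, 28 and 3 at a pseudocount of 1, 270 and 614 with each library centred on its median, 1819 and 684 on the adjusted p-value alone, 368 and 243 of DoGs free of same-strand genes, and 210 and 144 of DoGs listed in at least 1 of the 4 libraries; in the last 2 fewer DoGs were tested. They were 497 and 339 at a mean FPKM of at least 0.1. Leaving out 1 library gave 681 to 796 higher and 337 to 355 lower. The replicate block gave 697 and 345 again and changed no count by over 1.5 times. Deviations of same-numbered control and stressed conventional samples had a correlation of 0.02. That value cannot show whether same-numbered samples were paired. Conventional and hiAGPC libraries, which may share cells, also had correlations of only -0.019 (control) and -0.054 (stressed). The median log2 fold change of 0.44 was 0.99 and 0.074 at pseudocounts of 0.01 and 1, 0.19 at a mean FPKM of at least 0.1, 0.25 for listed DoGs, -0.12 after centring, and 0.42 to 0.46 without 1 library.

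No DoG differed in response from the SERIPH 1st-step fraction under any alternative (0 to 0 without 1 library). Against hiAGPC, where 23 were higher and 2009 lower, the counts were 0 and 132 at a pseudocount of 1, 14 and 867 at a mean FPKM of at least 0.1, 542 and 109 after centring, 12 and 1122 free of same-strand genes and 6 and 274 for listed DoGs. On the adjusted p-value alone 126 were higher. Without 1 library they were 19 to 23 and 1959 to 2032. Since both extractions may have shared cells, same-numbered conventional and hiAGPC libraries were also paired within each condition, a replicate block chosen after seeing the data, which gave 23 and 2008; their deviations had correlations of -0.019 (control) and -0.054 (stressed). Dropping second entries of a gene, also chosen after seeing the data, gave 695 higher and 345 lower under stress and 23 and 2006 against hiAGPC.

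For the lists, a minimum of 20 kb left 52 genes in both control and 108 in both stressed libraries, 9 in all 4, 97 stress-only and 41 control-only, and 3 longer against 2 shorter. Listing in either replicate gave 244 control-only genes. With 1 replicate alone the numbers were 330 to 351 (control), 380 to 418 (stressed), 117 to 134 (both), 263 to 284 (stress-only), 213 to 217 (control-only), 22 to 33 (longer) and 17 to 20 (shorter). Of the 74 named DoGs that were called, 62 kept their call after centring and 15 at a pseudocount of 1, and none turned direction. The cause of these shifts was not tested. Depth is unknown, and 2 replicates limit every p-value of the lists.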
